A study of Mus musculus with 9 samples.

Results

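The genes that let calcium out of the endoplasmic reticulum (ER) and back into the cell were followed in the mouse hippocampus. They are the IP3 receptors Itpr1, Itpr2 and Itpr3, the ryanodine receptors Ryr1, Ryr2 and Ryr3, the ER calcium sensors Stim1 and Stim2, and the plasma membrane channels Orai1 and Orai2. These 10 genes were taken by symbol from the 57180 genes of the deposited table. The study set 3 groups of 3 male mice against each other, and its title concerns S1P, a signalling lipid, and synaptic and behavioural deficits in an autism model.

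The MAN@SKI II group were BTBR T+ Itpr3tf/J mice given 40 mg/kg per day of MAN@SKI II, a brain-directed nanomicelle described as an S1P inhibitor, into the tail vein for 7 days. BTBR T+ Itpr3tf/J mice given vehicle by the same route and for as long formed the Model group, and C57BL/6J mice, a widely used inbred strain, given the same vehicle formed the Con group. The vehicle is given as saline in one label field and as PBS in another. All mice were 5 weeks old when treatment began and 6 weeks old at collection, which followed behavioural tests. BTBR mice are used as a model of autism because they are little sociable and groom repetitively. The strain differs from C57BL/6J across the whole genome, so Model against Con is a comparison of strains, in which no single allele can be told apart from the rest. All 6 BTBR mice carry tufted (tf), an in-frame deletion in the coding sequence of Itpr3. The counts sum all reads of a gene and do not show that deletion.

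IP3 receptors open when receptors at the cell surface drive phospholipase C to make IP3, and ryanodine receptors open when calcium itself binds them. When the store runs low, STIM proteins in the ER membrane sense the loss and open ORAI channels in the plasma membrane, which refill the store. In hippocampal neurons these channels shape calcium signals in dendrites and spines, and Itpr1 is the main neuronal IP3 receptor.

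Both receptor families end in a pore whose selectivity filter is held in a short conserved stretch. That stretch is shown because all 6 receptors share it, and because it shows how far the genes differ even there in the bases by which reads are assigned. The lines give 60 bases of coding strand, 5′ to 3′, from GENCODE M21 transcripts (GRCm38), with the 6 codons of the filter in capitals.
Itpr1: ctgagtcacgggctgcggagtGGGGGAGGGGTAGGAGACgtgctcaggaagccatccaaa
Itpr2: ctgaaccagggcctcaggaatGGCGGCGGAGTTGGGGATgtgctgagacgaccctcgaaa
Itpr3: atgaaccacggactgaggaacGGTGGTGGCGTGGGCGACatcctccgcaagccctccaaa
Ryr1: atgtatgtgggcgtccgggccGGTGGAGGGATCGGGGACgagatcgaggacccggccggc
Ryr2: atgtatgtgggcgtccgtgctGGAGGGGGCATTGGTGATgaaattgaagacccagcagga
Ryr3: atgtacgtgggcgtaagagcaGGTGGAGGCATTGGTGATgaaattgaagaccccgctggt

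The Itpr1 stretch is at chr6:108518767-108518826 on the plus strand, in exon 58 of 62. Itpr2 has it at chr6:146158890-146158949 on the minus strand, in exon 53 of 57, and Itpr3 at chr17:27118610-27118669 on the plus strand, in exon 54 of 58. Ryr1 has it at chr7:29005577-29005636 (minus strand, exon 105 of 109), Ryr2 at chr13:11560606-11560665 (minus strand, exon 101 of 105) and Ryr3 at chr2:112636610-112636669 (minus strand, exon 100 of 104). Of the 60 bases, Itpr2 shares 40 and Itpr3 shares 43 with Itpr1, while Ryr1 shares 46 and Ryr3 shares 50 with Ryr2. Across whole transcripts, the longest run of identical bases between any of the 45 pairs of the 10 genes was 35 bases, against reads of 150 bases. None of the 10 genes had a near-identical copy among the GENCODE M21 genes that had counts in these libraries.

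Total counts lay between 14751054 and 18827093 per library, at which 3 counts equal 0.159 to 0.203 CPM, that is, counts relative to the library total. Principal component 1, with 42.7% of the variance, separated Con from the 6 BTBR libraries, and component 2, with 14.8%, set MAN@SKI II 2 apart. Mitochondrial genes took 9.63% of the counts of MAN@SKI II 2, against 6.26% to 7.15% in the other libraries. Markers of hippocampal cells were present: all 9 for dentate granule cells and all 11 for CA pyramidal cells passed the filter on low counts. Summed choroid plexus markers were 147 to 461 CPM in MAN@SKI II, 123 to 446 CPM in Model and 1164 to 3127 CPM in Con. Summed oligodendrocyte markers were 2449 to 2767, 2870 to 3182 and 4578 to 5270 CPM in the same order of groups. In bulk tissue, fewer cells of a type and less RNA per cell cannot be told apart.

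All 10 genes passed the filter, and their levels spanned a wide range. Levels between genes are given per length, as the authors' FPKM averaged over the 9 libraries. Orai2 was at 21.9 FPKM (range 19.9 to 24.0) and Itpr1 at 21.0 FPKM (18.2 to 25.0), ranges that overlap. Stim2 at 13.3 FPKM and Ryr2 at 10.8 FPKM came next, below Itpr1 in every library and overlapping each other. Ryr3 stood alone in the middle at 6.97 FPKM (6.21 to 7.66). Stim1 at 3.97, Orai1 at 2.76, Ryr1 at 2.22 and Itpr2 at 1.65 FPKM each overlapped the next in this order. Itpr3 was the lowest at 0.516 FPKM (0.392 to 0.713), from 57 to 103 counts per library.

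**Figure D1:**
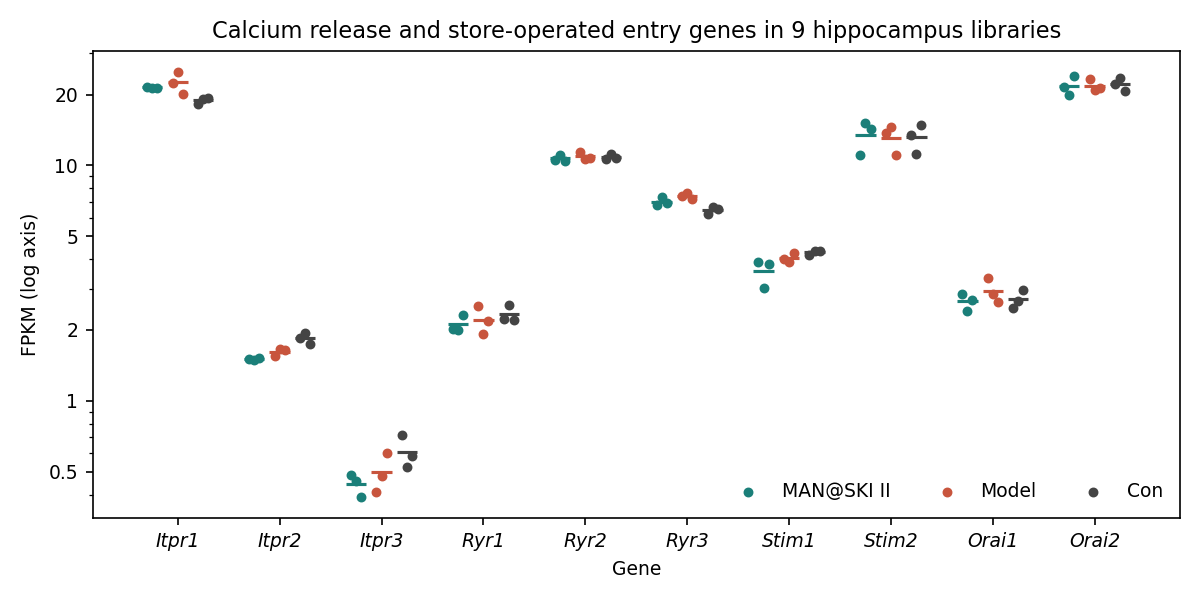
FPKM (log axis) of the 10 genes in each of the 9 libraries; points are libraries, bars group means, coloured by group. Orai2 and Itpr1 are highest and Itpr3 lowest in every group, with 21.9, 21.0 and 0.516 FPKM on average.

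Itpr1, the main neuronal IP3 receptor, made up 90.5% of the summed FPKM of the 3 IP3 receptors, from 87.7% to 92.1% over the libraries. Itpr2, the form best known from glia, made up 7.22%, and Itpr3, best known from epithelia and taste cells, 2.27%. Among ryanodine receptors the order was Ryr2 (54.1%, the form named for heart), Ryr3 (34.8%, known from brain) and Ryr1 (11.1%, the form named for skeletal muscle). Summed skeletal muscle markers were 6.01 to 7.14 CPM in MAN@SKI II, 4.58 to 5.69 CPM in Model and 4.36 to 7.61 CPM in Con, with 3 of the 6 markers passing the filter. Stim2 made up 76.8% of the Stim sum and Stim1 23.2%. Within the ORAI family Orai2 took 59.3%, Orai3 33.2% and Orai1 7.47%.

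None of the 10 genes was called in any comparison at an adjusted p under 0.05 by edgeR's quasi-likelihood test with Benjamini-Hochberg adjustment over all 17550 genes tested. The same test called 7.64% of all genes in Model against Con, 0.0% in MAN@SKI II against Model and 8.13% in MAN@SKI II against Con. DESeq2 and limma-voom also called none of the 10, while over all genes DESeq2 called 8.97%, 0.0969% and 9.58% in the same order of comparisons, and limma-voom 7.60%, 0.0% and 7.91%. At an unadjusted p under 0.05 there were 3 of the 10 in Model against Con, 0 in MAN@SKI II against Model and 4 in MAN@SKI II against Con, against 19.6%, 4.82% and 21.6% of all genes. The comparisons share groups: both comparisons with Con use the same Con libraries, and both with Model the same Model libraries.

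Model against Con asked how the BTBR strain differs from C57BL/6J. The nearest to the threshold were Itpr1 and Ryr3, higher in Model, and Itpr2, lower in Model, at 1.19-, 1.15- and 0.879-fold of Con. These 3 genes had Model and Con libraries that did not overlap, as had 32.3% of all genes (16.0% higher and 16.2% lower). The same 3 kept all 6 BTBR libraries apart from Con, as did 18.3% of all genes (8.36% higher and 9.94% lower). The median absolute log2 fold change was 0.10 over the 10 genes and 0.14 over all genes. The median standard error was 0.08 for the 10 genes and 0.14 for all genes.

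Itpr1 had 451, 467 and 443 CPM in MAN@SKI II 1 to 3, 469, 522 and 418 CPM in Model 1 to 3, and 376, 400 and 406 CPM in Con 1 to 3. All 6 BTBR libraries lay above all 3 Con libraries, with Model 3 closest to Con and Model 2 highest. The log2 fold change of Model over Con was 0.25 ± 0.08 (SE), with an adjusted p of 0.0786 in edgeR and a 95% interval of 1.06- to 1.34-fold. The gene was called without Model 3 (log2 fold change 0.33, adjusted p = 0.0272 in edgeR) and without MAN@SKI II 2 (adjusted p = 0.0489 in edgeR), fits that called 4.89% and 12.5% of all genes. Summed markers of cerebellar Purkinje cells, which are rich in Itpr1, were 27.9 to 29.9 CPM in MAN@SKI II, 25.7 to 30.2 CPM in Model and 24.6 to 26.2 CPM in Con. Of these 5 markers 3 passed the filter, and in Model over Con 2 had positive and 1 a negative log2 fold change. Summed thalamic neuron markers were 89.2 to 124 CPM in MAN@SKI II, 96.0 to 108 CPM in Model and 82.3 to 87.3 CPM in Con. Both BTBR groups thus lay above Con without overlap. Of the 5 thalamic markers tested, 4 had positive and 1 a negative log2 fold change in Model over Con. The part of the Purkinje cell and thalamic markers in the Itpr1 difference was not tested. Itpr1 lies at chr6:108190057-108528070 on the plus strand in the deposited GRCm39 coordinates.

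Itpr2 had 24.7, 25.7 and 24.9 CPM in MAN@SKI II 1 to 3, 25.5, 27.5 and 27.0 CPM in Model 1 to 3, and 30.1, 31.9 and 29.0 CPM in Con 1 to 3. Here the 6 BTBR libraries all lay below the 3 Con libraries. The log2 fold change was -0.19 ± 0.08 in Model over Con (adjusted p = 0.217 in edgeR) and -0.27 ± 0.08 in MAN@SKI II over Con (adjusted p = 0.0607 in edgeR). The second passed the threshold without MAN@SKI II 2 (-0.29, adjusted p = 0.0486 in edgeR) and without normalization factors (-0.29, adjusted p = 0.0450 in edgeR), fits that called 9.14% and 7.97% of all genes. Summed astrocyte markers were 3956 to 4300 CPM in MAN@SKI II, 4051 to 4221 CPM in Model and 4505 to 4574 CPM in Con, also without overlap. Of these 8 markers, 2 had positive and 6 negative log2 fold changes in Model over Con. Summed markers of microglia, of endothelial and mural cells and of striatal neurons also lay below Con in all BTBR libraries. Those of CA pyramidal cells and inhibitory interneurons overlapped Con. The part of any of these markers in the Itpr2 values, and that of the oligodendrocyte markers above, was not tested. Itpr2 lies at chr6:146009797-146403721 (GRCm39), and Gm15720, a gene model inside it on the same strand, had 220 counts over all libraries, against 4115 for Itpr2.

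Itpr3, the gene that carries the tufted allele in BTBR, had 78, 63 and 57 counts in MAN@SKI II, 64, 77 and 100 counts in Model, and 101, 83 and 103 counts in Con. In CPM these were 4.20 ± 0.480 in MAN@SKI II, 4.63 ± 0.881 in Model and 5.65 ± 0.852 in Con (SD, n = 3 each). Model 3 lay inside the Con range and the other Model libraries below it, while all MAN@SKI II libraries lay below Con. The log2 fold change was -0.28 ± 0.18 in Model over Con (adjusted p = 0.465 in edgeR) and -0.43 ± 0.19 in MAN@SKI II over Con (adjusted p = 0.215 in edgeR). At this depth the Model over Con interval ran from 0.619- to 1.09-fold, so a fall of the size seen could not be told from no change. Itpr3 lies at chr17:27276278-27341197 (GRCm39, plus strand).

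Because FPKM shares within a family do not depend on library scaling, they were also set side by side. Itpr1 held 91.6% to 91.8% of the IP3 receptor sum in MAN@SKI II, 90.0% to 92.1% in Model and 87.7% to 89.2% in Con. The share of Itpr2 was 6.35% to 6.53% in MAN@SKI II, 6.13% to 7.35% in Model and 8.07% to 8.94% in Con. Neither BTBR group overlapped Con in either share. These are the same reads as above and give no separate test.

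**Figure D2:**
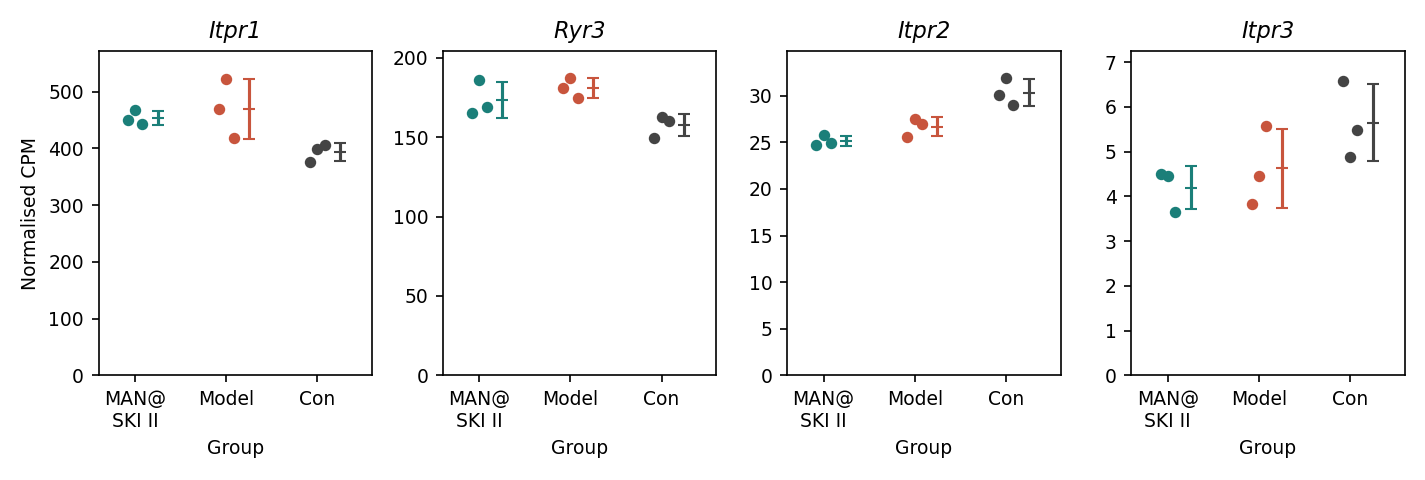
Normalised CPM (axes from 0) of the 3 IP3 receptors and Ryr3 by group; points are libraries, the cross-bar and whiskers the mean ± SD of 3 libraries. Itpr1 and Ryr3 lie higher and Itpr2 lower in all 6 BTBR libraries than in Con, whereas Itpr3 overlaps between Model and Con.

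Ryr3 had 165, 186 and 169 CPM in MAN@SKI II 1 to 3, 181, 187 and 175 CPM in Model 1 to 3, and 150, 163 and 160 CPM in Con 1 to 3. The BTBR libraries again lay above Con without overlap, MAN@SKI II 1 by the smallest margin. The log2 fold change of Model over Con was 0.20 ± 0.07 (adjusted p = 0.104 in edgeR), and that of MAN@SKI II over Con was 0.14 ± 0.07 (adjusted p = 0.255 in edgeR). Model over Con was called without MAN@SKI II 2 (adjusted p = 0.0182 in edgeR) and in a fit of only the 6 Model and Con libraries (adjusted p = 0.0266 in edgeR), which called 12.1% of all genes. Ryr3 lies at chr2:112461700-113047441 (GRCm39, minus strand), and Aven, an apoptosis regulator that overlaps it on the opposite strand, had 803 counts, against 25612 for Ryr3. Without a stated strand setting, reads in the overlap cannot be told apart.

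Ryr2 was at like levels in all groups. It had 334, 367 and 328 CPM in MAN@SKI II 1 to 3, 361, 337 and 338 CPM in Model 1 to 3, and 333, 355 and 340 CPM in Con 1 to 3, with all groups overlapping. The 95% interval of the fold was 0.916 to 1.11 in Model over Con, 0.904 to 1.09 in MAN@SKI II over Model and 0.911 to 1.10 in MAN@SKI II over Con. Ryr1 had 49.7 ± 3.66 CPM (MAN@SKI II), 51.2 ± 7.05 CPM (Model) and 53.9 ± 4.42 CPM (Con), and its groups overlapped. Its log2 fold change was -0.08 ± 0.11 in Model over Con (adjusted p = 0.790 in edgeR). Ryr2 lies at chr13:11567988-12121831 and Ryr1 at chr7:28702769-28824604, both on the minus strand (GRCm39).

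Stim1, the sensor that drives most store-operated entry in non-excitable cells, had 64.4, 51.8 and 62.6 CPM in MAN@SKI II 1 to 3. It had 66.2, 64.3 and 69.4 CPM in Model and 68.2, 71.6 and 72.0 CPM in Con. MAN@SKI II 2, the library that stood apart, was the lowest of all 9, and the MAN@SKI II and Con libraries did not overlap. The log2 fold change was -0.24 ± 0.09 in MAN@SKI II over Con (adjusted p = 0.121 in edgeR) and -0.16 ± 0.09 in MAN@SKI II over Model (adjusted p = 0.914 in edgeR). The second is the largest log2 difference in size among the 10 genes in that comparison, with an unadjusted p of 0.0896.

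Stim2, the sensor that responds to small falls in store calcium and is prominent in neurons, varied widely between replicates, with a coefficient of variation of 17.9% in MAN@SKI II, 14.1% in Model and 14.5% in Con. It had 89.3, 128 and 115 CPM in MAN@SKI II 1 to 3, 110, 118 and 89.1 CPM in Model 1 to 3, and 107, 90.3 and 121 CPM in Con 1 to 3. Each group held 1 library near 90 CPM and others at 107 CPM or more, so the spread within groups exceeded any difference between them. The log2 fold change was -0.01 ± 0.16 in Model over Con (adjusted p = 0.990 in edgeR), with an interval of 0.779- to 1.27-fold. Stim1 lies at chr7:101917013-102086526 and Stim2 at chr5:54155841-54278399, both on the plus strand (GRCm39).

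Orai1, the pore of the classical calcium release-activated current, had 7.86 ± 0.498 CPM (MAN@SKI II), 8.62 ± 1.05 CPM (Model) and 7.89 ± 0.797 CPM (Con) (SD, n = 3 each). Orai2, the abundant ORAI in this tissue, had 226 ± 16.9 CPM (MAN@SKI II), 224 ± 13.6 CPM (Model) and 227 ± 13.0 CPM (Con). Both overlapped between all groups. The interval of the fold in Model over Con was 0.887 to 1.34 for Orai1 and 0.881 to 1.11 for Orai2. Orai1 lies at chr5:123153137-123168519 (plus strand) and Orai2 at chr5:136176313-136199567 (minus strand), in GRCm39.

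MAN@SKI II against Model asked what the drug changed within BTBR. The 10 genes had log2 fold changes from -0.16 to 0.07, with adjusted p-values from 0.914 to 0.989 in edgeR, and 0 of 10 had groups that did not overlap, against 9.43% of all genes. The median log2 fold change was -0.06 over the 10 genes and 0.00 over all genes. The widest interval was that of Itpr3, from 0.679- to 1.21-fold, and the narrowest that of Ryr2. The data do not show that these genes were equal in the 2 groups, only that changes beyond these intervals were not seen. MAN@SKI II against Con gave 5 genes without overlap, Itpr1 and Ryr3 higher and Itpr2, Itpr3 and Stim1 lower, against 27.3% of all genes (13.0% higher and 14.4% lower).

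**Figure D3:**
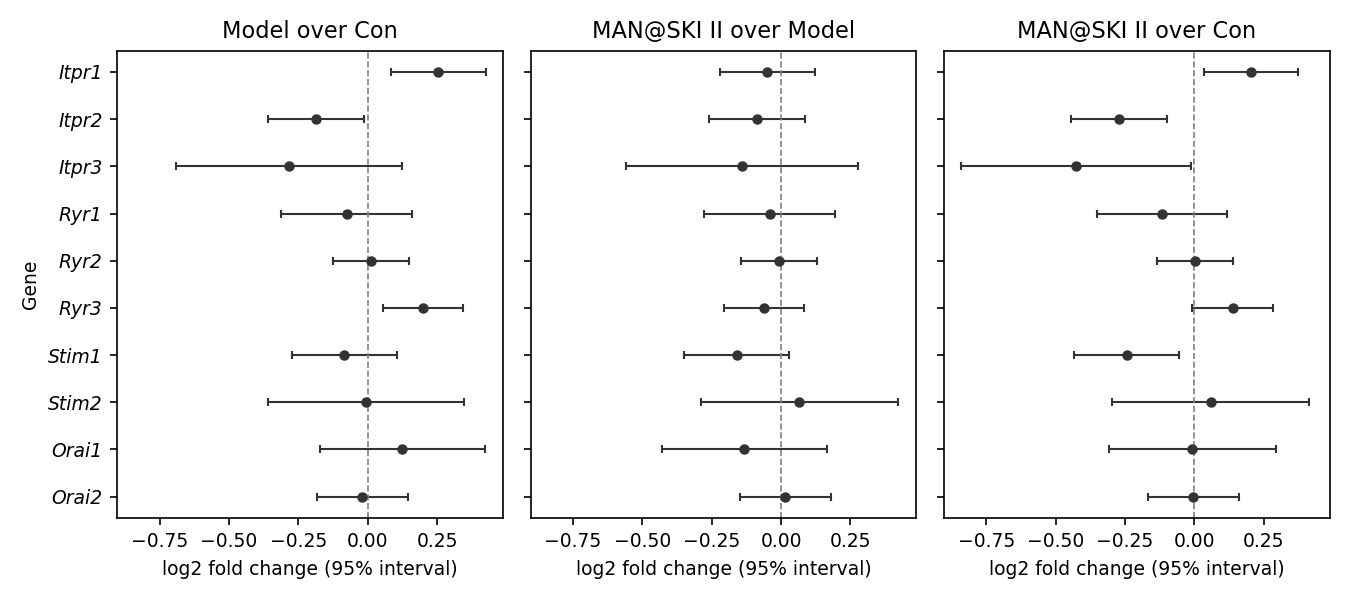
Log2 fold change with its 95% interval for the 10 genes in each comparison; the dashed line marks no change. In MAN@SKI II over Model every interval includes 0, and in both comparisons with Con the points of Itpr1 lie above and those of Itpr2 below 0.

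The genes around these channels were read from 8 lists with 126 genes, of which 121 were tested in 122 rows of the table. In Model against Con, 3 rows were called higher and 6 lower, in all 7.38%, against 3.11% higher and 4.52% lower among all genes. At an unadjusted p under 0.05 in edgeR there were 20 of the 122 rows, against 19.6% of all genes. None of the 3 tools called any in MAN@SKI II against Model, where edgeR called 0.0% of all genes. None had an unadjusted p under 0.05 in edgeR, against 4.82% of all genes. MAN@SKI II against Con had 3 called higher and 5 lower, in all 6.56%, against 3.43% higher and 4.70% lower among all genes. The median log2 fold change over the lists was 0.03, -0.00 and 0.03 in these comparisons, and 0.00 over all genes in each. Without MAN@SKI II 2, the calls numbered 18 in Model against Con (14.8%, in a fit that called 12.5% of all genes) and 12 in MAN@SKI II against Con (9.84%, beside 9.14% of all genes). In both comparisons with Con the shares are near those of all genes, so there the lists as a whole did not stand apart.

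Among the called list genes, Itpkb had the largest fall on the log2 scale. It is one of the IP3 3-kinases, which phosphorylate IP3 and so end its action on the receptor. Itpkb, the widely expressed form, had 30.2, 21.8 and 25.3 CPM in MAN@SKI II 1 to 3, 23.4, 25.5 and 27.0 CPM in Model 1 to 3, and 49.6, 45.7 and 46.4 CPM in Con 1 to 3. Itpka, the neuronal form bound to actin in dendritic spines, had 149, 137 and 173 CPM in MAN@SKI II 1 to 3, 157, 167 and 166 CPM in Model 1 to 3, and 233, 258 and 243 CPM in Con 1 to 3. All 6 BTBR libraries lay below Con for both genes. The third member, Itpkc, had 11.1 ± 1.55 CPM (MAN@SKI II), 11.0 ± 0.990 CPM (Model) and 9.80 ± 0.219 CPM (Con), and was not called.

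In Model over Con, Itpkb fell by 0.90 ± 0.11 on the log2 scale (adjusted p = 0.000630 in edgeR) and Itpka fell by 0.58 ± 0.08 (adjusted p = 0.00152 in edgeR). The log2 fold changes of MAN@SKI II over Con were -0.87 ± 0.11 for Itpkb (adjusted p = 0.000758 in edgeR) and -0.68 ± 0.08 for Itpka (adjusted p = 0.000569 in edgeR). Between MAN@SKI II and Model the log2 differences were 0.03 ± 0.12 for Itpkb and -0.09 ± 0.08 for Itpka, neither called (adjusted p = 0.979 and 0.914 in edgeR). The calls against Con were kept when any single library was left out. They were lost when choroid plexus markers, which separate Con from BTBR without overlap, were added as a term. With that term the log2 fold change of Itpkb was -0.83 in Model over Con (adjusted p = 0.330 in edgeR) and -0.81 in MAN@SKI II over Con (adjusted p = 0.248). That of Itpka was -0.41 in Model over Con (adjusted p = 0.592 in edgeR) and -0.52 in MAN@SKI II over Con (adjusted p = 0.299). Summed dentate granule cell markers were 461 to 546 CPM in MAN@SKI II, 396 to 484 CPM in Model and 516 to 571 CPM in Con, and their part in these falls was not tested. The other 8 genes of IP3 breakdown, phosphatases and Itpkc, were not called by edgeR.

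Upstream of the receptors, 1 of 17 genes of IP3 production was called in Model against Con (5.88%, beside 7.64% of all genes). In MAN@SKI II against Con 0 of the 17 passed the threshold in edgeR, DESeq2 or limma-voom, while edgeR called 8.13% of all genes. At an unadjusted p under 0.05 in edgeR there were 3 and 1 of the 17 in these comparisons, beside 19.6% and 21.6% of all genes. Plce1, a phospholipase C regulated by Ras proteins, had 12.7 ± 2.27 CPM (MAN@SKI II), 10.3 ± 1.38 CPM (Model) and 15.5 ± 1.14 CPM (Con), and fell by 0.59 ± 0.15 on the log2 scale in Model over Con (adjusted p = 0.0310 in edgeR). The metabotropic glutamate receptors that drive IP3 synthesis in these neurons were not called: Grm5 had 342 ± 65.7 CPM (MAN@SKI II), 322 ± 12.4 CPM (Model) and 296 ± 7.73 CPM (Con). Plcb1, an abundant phospholipase C of the forebrain, had 263 ± 37.3, 253 ± 13.7 and 249 ± 11.4 CPM in the same order of groups.

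Among 29 tested partners of the release channels, 3 were called in Model over Con (10.3%, beside 7.64% of all genes). That count was 0 without Con 1 or any 1 of the Model libraries, 1 without Con 2 or Con 3, 7 in the 6 compared libraries alone and 8 without MAN@SKI II 2. Itprip, which binds the IP3 receptor, rose by 0.93 ± 0.22 on the log2 scale (adjusted p = 0.0277 in edgeR), with 2.51 ± 0.122 CPM for Model against 1.32 ± 0.153 CPM for Con. Jph4, a junctophilin that ties ER to plasma membrane in neurons, rose by 0.23 ± 0.06 (adjusted p = 0.0362 in edgeR). Itprid2 fell by 0.35 ± 0.08 (adjusted p = 0.0226 in edgeR). In MAN@SKI II over Con, Itprip and Itprid2 were called in the same directions.

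Of the partners of store-operated entry, 1 of 14 rows was called in Model against Con (7.14%, beside 7.64% of all genes). Septin4, a septin named in screens for store-operated entry, had 83.2 ± 4.22 CPM (MAN@SKI II), 82.9 ± 0.636 CPM (Model) and 111 ± 5.00 CPM (Con). It fell by 0.42 ± 0.06 on the log2 scale in Model over Con (adjusted p = 0.00193 in edgeR), and this call too was kept without any single library. The oligodendrocyte markers above were also lower in all BTBR libraries than in Con, and their part in the Septin4 values was not tested. Septin2 was listed as 2 near-identical gene models between which reads were split differently from library to library, so the values of each model are uncertain. The sum of the 2 models was 54.9 to 68.2 CPM in MAN@SKI II, 62.5 to 65.8 CPM in Model and 63.1 to 67.9 CPM in Con. These sums overlapped between all groups and were not tested. Saraf, which switches store-operated entry off, had 219 ± 25.1 CPM (MAN@SKI II), 236 ± 3.15 CPM (Model) and 214 ± 18.6 CPM (Con) and was not called.

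Of the store's pumps and buffers 0 of 15 were called in either comparison with Con by edgeR, DESeq2 or limma-voom. Over all genes, edgeR called 7.64% in Model against Con and 8.13% in MAN@SKI II against Con. At an unadjusted p under 0.05 in edgeR there were 2 and 4 of the 15 in these comparisons, beside 19.6% and 21.6% of all genes. Atp2a2, the main pump that fills the neuronal store, had 1041 ± 81.7 CPM (MAN@SKI II), 1043 ± 83.5 CPM (Model) and 979 ± 27.9 CPM (Con). Atp2b2, a calcium pump of the plasma membrane, rose by 0.54 ± 0.14 on the log2 scale in MAN@SKI II over Con (adjusted p = 0.0464 in edgeR). It had 404, 558 and 421 CPM in MAN@SKI II 1 to 3, with MAN@SKI II 2 highest. Mfn2, which tethers ER to mitochondria, fell by 0.27 ± 0.07 in Model over Con (adjusted p = 0.0411 in edgeR), and Nfatc2, a transcription factor switched on by calcineurin, rose by 0.46 ± 0.10 (adjusted p = 0.0131 in edgeR).

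Only Itpka, Itpkb and Septin4 kept their calls in every left-out fit, 3 of 9 called genes in Model against Con and 3 of 8 in MAN@SKI II against Con. Plce1 lost its call in 5 of the 9 left-out fits in Model over Con, Itprip in 6, Jph4 in 7, Mfn2 in 6, Itprid2 in 4 and Nfatc2 in 3. Their adjusted p reached at most 0.152 in edgeR, that of Mfn2. The libraries whose removal did this were all 6 of Model and Con, and for Jph4 and Mfn2 also MAN@SKI II 1. In MAN@SKI II over Con, Atp2b2 lost its call in 8 of the 9 left-out fits, all but that without MAN@SKI II 1, with an adjusted p of up to 0.142 in edgeR. Itprip lost it in 4 (Con 1, 2 and 3 and MAN@SKI II 3), Mfn2 in 3 (Con 2, Con 3 and MAN@SKI II 1) and Itprid2 in 2 (Con 1 and MAN@SKI II 1). All these calls against Con were lost with choroid plexus markers as a term, which cannot be told apart from strain. That term left 101 calls over all genes in Model against Con, in place of 1340. In MAN@SKI II against Con it left 133, in place of 1427. With it, the log2 fold changes in Model over Con were 1.31 for Itprip, 0.30 for Jph4, 0.31 for Nfatc2, -0.42 for Plce1, -0.34 for Septin4, -0.23 for Mfn2 and -0.08 for Itprid2. Those in MAN@SKI II over Con were 1.27 for Itprip, 0.28 for Atp2b2, -0.34 for Septin4, -0.28 for Mfn2 and -0.11 for Itprid2.

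**Figure D4:**
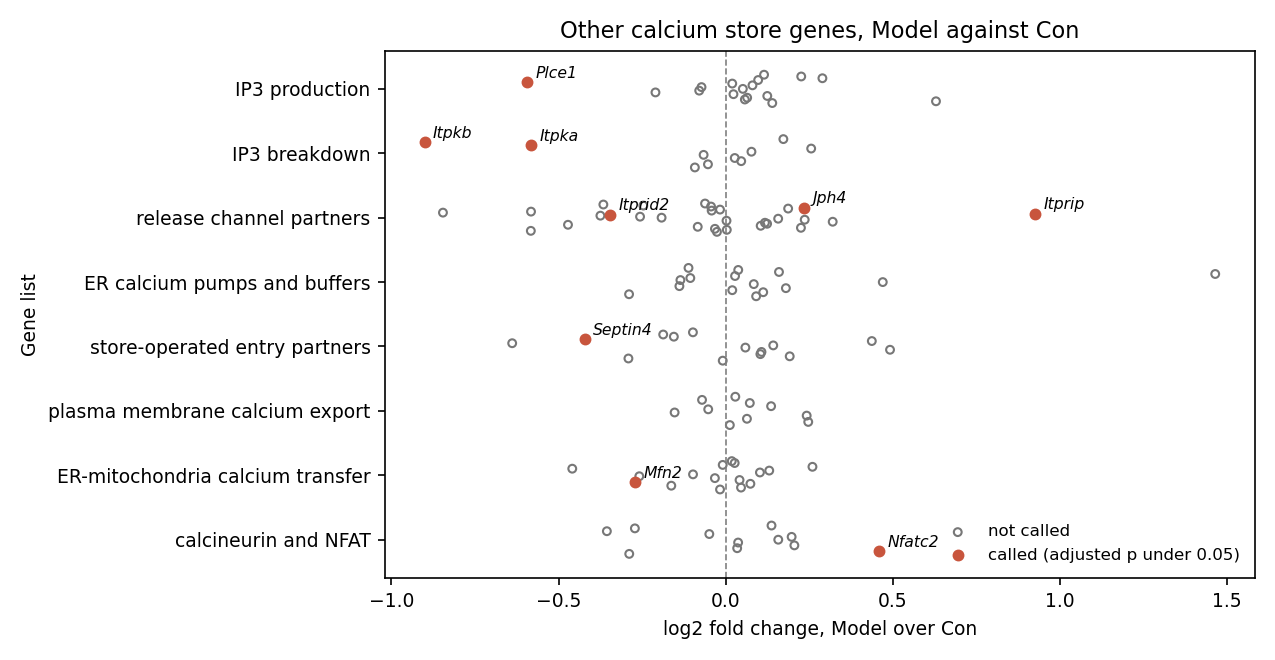
Log2 fold change of Model over Con for the tested genes of the 8 lists; filled points were called at an adjusted p under 0.05, open points were not. Itpkb at -0.90 and Itpka at -0.58 lie to the left of the other members of their list.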

How the data were processed

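Poly(A) RNA of 9 hippocampi was sequenced as paired reads of 150 bases, per the labels' protocols. The counts are the authors' raw whole-number counts per gene, per the file headers. FPKM columns come from the authors as well, per the file headers; each equals the deposited count over gene length and library total. The build GRCm39 and the tools Bowtie2, edgeR 3.2.0, HISAT2 2.0.4 and StringTie 1.3.3b are named per the submitters' processing notes. Which program counted, and with which strand setting, is not given in the sources used here.

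Genes were kept by filterByExpr (17550) and tested with edgeR 4.0.16 in R 4.3.3, on the counts as deposited. TMM factors and a robust quasi-likelihood fit of all 9 libraries with group as the only term were used (common dispersion 0.0196). Tests were two-sided F tests, with Benjamini-Hochberg adjustment over all genes and calls under 0.05. Levels are normalised CPM, mean ± SD, and fold change errors are SE. Rows without a symbol took at most 0.0992% of counts. Replicates are called biological in the titles. A floor of 3 counts reflects counting error alone, as PCR copies of a molecule are not independent.

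Alternatives were RLE or no normalization factors, no filter, 1 CPM in 3 libraries, DESeq2 1.42.0, limma-voom (limma 3.58.1), the 6 compared libraries only, the replicate number or choroid plexus markers as a term, and leaving out each library in turn. The contrast of both BTBR groups with Con was added after seeing the data. The fit was tested on simulated data with known answers. It called 34.3% to 44.8% of 1.5-fold changes and 76.1% to 79.1% of 2-fold changes over the comparisons. Changes below 1.5-fold were not simulated. Sequences came from GENCODE M21 transcripts, and copies were searched with BLAST 2.17.0 (97% identity over 150 bases or more that cover 50% of the shorter transcript). Irag2 was not found by symbol.

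The 10 genes, the lists and the tests were chosen with earlier results of these data known. Named were all 10 genes and, from each list, the called genes, at most 3 per direction. From neighbours within 500 kb, the called ones were named, at most 3 per gene by adjusted p. The 3 genes most correlated with Itpr1, the one with the smallest p, were taken among genes of at least 5 CPM. List members named without a call (Itpkc, Grm5, Plcb1, Saraf, Atp2a2) and Septin2 were picked after their values were seen. One called list gene is not reported here.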

Additional observations from a re-analysis of the deposited data

How the results depend on the processing

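Under 6 compared libraries only, 2073 genes were called in Model against Con in place of 1340, and 1 of the 10 genes (Ryr3). With choroid plexus markers as a term, 101 genes were called in Model against Con and 133, in place of 1427, in MAN@SKI II against Con. Those markers separate Con from BTBR without overlap, so this term and strain cannot be told apart. With 1 library left out, calls ranged from 830 to 2226 in Model against Con (830 and 880 when Con 1 or Con 2 was left out, 850 and 872 for Model 1 or Model 3, 2226 for MAN@SKI II 2). They ranged from 0 to 9 in MAN@SKI II against Model and from 857 to 1633 in MAN@SKI II against Con (857, 878 and 944 for Con 1, 2 and 3). Calls among the 10 genes ranged from 0 to 2 in Model against Con (2 without MAN@SKI II 2, 1 without Model 3) and from 0 to 1 in MAN@SKI II against Con, where no normalization factors also gave 1. In MAN@SKI II against Model, DESeq2 called 17 genes, and the 6 compared libraries, no filter and no normalization factors each called 1, in place of 0. The cause was not tested.

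With the replicate number as a block, 1044 genes were called in Model against Con, 1 in MAN@SKI II against Model and 1134 in MAN@SKI II against Con, and 0 of the 10 genes in each. In their deviations from the group means, libraries with the same number correlated at -0.0639 to 0.0525, so no pairing by number was seen. The numbers are those of the titles, so this cannot exclude that libraries were handled in other sets.

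Signs turned for genes near 0. With the choroid plexus term, Model over Con gave -0.13 for Ryr2, 0.18 for Stim2, -0.11 for Orai1 and 0.025 for Orai2. MAN@SKI II over Model gave 0.0094 for Ryr2, and MAN@SKI II over Con gave -0.12 for Ryr2 and 0.034 for Orai2. With both BTBR groups against Con, Stim2 was at 0.026. Without normalization factors, Orai2 was at -0.0037 in MAN@SKI II over Model and Ryr2 at -0.021 in MAN@SKI II over Con. In the last comparison Ryr2 was at -0.0047 with no filter, and Orai2 at 0.00011 in DESeq2 and 3.0e-06 with RLE factors. With 1 library left out, Model over Con ranged from -0.18 to 0.013 for Ryr1, -0.024 to 0.036 for Ryr2, -0.11 to 0.10 for Stim2 and -0.071 to 0.024 for Orai2. MAN@SKI II over Model ranged from -0.13 to 0.033 for Itpr1, -0.26 to 0.015 for Itpr3, -0.13 to 0.067 for Ryr1, -0.060 to 0.025 for Ryr2, -0.053 to 0.20 for Stim2, -0.047 to 0.067 for Orai2 and -0.10 to 0.13 for Itpkb. MAN@SKI II over Con ranged from -0.048 to 0.033 for Ryr2, -0.059 to 0.19 for Stim2, -0.073 to 0.072 for Orai1 and -0.067 to 0.040 for Orai2. Of 550 refitted values of the 10 genes, 501 kept direction and side of the threshold, 43 turned sign and 6 newly passed it. Depth limits Itpr3 most, at 57 to 103 counts per library.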

Other observations

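Genes within 500 kb of the 10 genes were also read, since BTBR and C57BL/6J differ in sequence along whole chromosomes. Of 152 tested neighbours, 3 were called higher and 6 lower in Model against Con by edgeR (5.92%, against 7.64% of all genes). MAN@SKI II against Con had 3 higher and 8 lower (7.24%, against 8.13%), and MAN@SKI II against Model had none. Itpr1, Ryr1, Ryr2, Ryr3 and Orai1 had no called neighbour in Model against Con. Near Itpr3, the gene model Gm41555, at 122.741 kb, had 42, 30 and 22 counts in MAN@SKI II, 31, 38 and 42 counts in Model and 0 in each Con library. That is at least 9.42-fold higher in Model than in Con, against a floor of 3 counts per library. Hmga1, a chromatin protein at 434.274 kb on the other side, had 7.15 ± 1.22 CPM (MAN@SKI II), 7.08 ± 0.711 CPM (Model) and 13.2 ± 0.740 CPM (Con) (SD, n = 3 each). It fell by 0.90 ± 0.14 on the log2 scale in Model over Con (adjusted p = 0.00247 in edgeR).

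Next to Stim1, 4 of 24 tested neighbours were called in Model against Con, beside 7.64% of all genes. Rhog, a small GTPase 11.752 kb away, had 15.2 ± 0.635 CPM (MAN@SKI II), 14.3 ± 0.736 CPM (Model) and 23.0 ± 1.94 CPM (Con), and fell by 0.68 ± 0.10 on the log2 scale in Model over Con (adjusted p = 0.00136 in edgeR). Il18bp, which binds interleukin-18, fell by 1.25 ± 0.20 (adjusted p = 0.00269 in edgeR). Folr1, a folate receptor and choroid plexus marker, fell by 3.12 ± 0.49 (adjusted p = 0.00234 in edgeR). With the mean log2 CPM of the choroid plexus markers as a term, the log2 fold change of Model over Con was -0.74 for both Folr1 (adjusted p = 0.877 in edgeR) and Il18bp (adjusted p = 0.709). Folr1 is itself among the 9 markers averaged in the term, so its smaller value is partly built in, unlike that of Il18bp. That term and strain cannot be told apart. The calls of Hmga1, Rhog, Rbpj, Ssc4d and Ints13 were lost with it too, and that of Gm41555 was not. Rbpj, the DNA-binding partner of Notch, lies 341.137 kb from Stim2 and fell by 0.70 ± 0.09 (adjusted p = 0.000924 in edgeR). Ssc4d, near Orai2, rose by 1.28 ± 0.28 (adjusted p = 0.0162 in edgeR), and Ints13, near Itpr2, fell by 0.33 ± 0.08 (adjusted p = 0.0283 in edgeR). The call of Ssc4d was lost in 3 and that of Ints13 in 6 of the 9 fits with 1 library left out. In MAN@SKI II over Con but not in Model over Con, Nudt3, 457.159 kb from Itpr3, and Cux1, a transcription factor gene 77.422 kb from Orai2, were also called. Nudt3 had 197 ± 23.5 CPM (MAN@SKI II), 228 ± 2.79 CPM (Model) and 269 ± 9.18 CPM (Con), and fell by 0.45 ± 0.08 in MAN@SKI II over Con (adjusted p = 0.00575 in edgeR). Cux1 had 27.4 ± 2.16 CPM (MAN@SKI II), 29.9 ± 2.66 CPM (Model) and 36.2 ± 0.679 CPM (Con), and fell by 0.40 ± 0.09 (adjusted p = 0.0220 in edgeR). The call of Nudt3 was kept in all 9 left-out fits, and that of Cux1 was lost without Con 1, Con 2 or Con 3. With the choroid plexus term both calls were lost, at -0.43 for Nudt3 (adjusted p = 0.488 in edgeR) and -0.42 for Cux1 (adjusted p = 0.590).

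Among 12370 genes compared over the 9 libraries, the pattern of log2 CPM most like that of Itpr1 was that of Sertm1 (Pearson r = 0.977), followed by Adcy9 (r = 0.962), an adenylyl cyclase, and Itsn1 (r = 0.944), an endocytic scaffold. The libraries share strain groups and depth, and none of these 3 genes was called in Model against Con.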
